A study of Homo sapiens with 16 samples.

Results

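The nuclear genes for the proteins of the mitochondrial ribosome were examined for promoter occupancy by BCL11A and ZBTB7A in human erythroid cell lines. Members were the genes whose symbol begins with MRPL or MRPS followed by a number and that have a protein-coding (NM) transcript on a standard chromosome of the deposited annotation. This gave 78 genes of 19343, 49 of them named for the large subunit (MRPL) and 29 for the small subunit (MRPS). The names are historical, and MRPS18A and MRPS30 encode proteins that structures place in the large subunit. Of the members, 7 lie on chromosome 11, 4 on chromosome 19 and 3 on chromosome 8.

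BCL11A was profiled through its V5 tag in HUDEP-2 cells, an immortalised erythroid progenitor line, that carried a BCL11A-ER-V5 fusion and had been treated with 4-hydroxytamoxifen at 1e-07 M for 24 h (2 ChIP and 2 control libraries). This list therefore reports an introduced, induced fusion protein. ZBTB7A was profiled with antibodies against the protein in K562, an erythroleukaemia line (4 ChIP and 4 control libraries). It was also profiled in HUDEP-2 (ΔGγ) 195C>G cells and in HUDEP-2 (ΔGγ) WT cells, with 1 ChIP and 1 control library each, so both of these groups share the ΔGγ background and differ by the 195C>G change. The labels do not say whether each HUDEP-2 line is 1 clone, and no expression was measured, so cell identity could not be checked against markers.

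The mitochondrial ribosome translates the few proteins that mitochondrial DNA encodes, all of them parts of the respiratory chain or the ATP synthase. Its own proteins are encoded in the nucleus, made in the cytosol and imported, and several of their genes share a promoter with a neighbour read in the opposite direction. BCL11A and ZBTB7A are zinc finger repressors known in erythroid cells for silencing the fetal γ-globin genes. Erythroid precursors depend on mitochondria for haem synthesis and lose them at the end of maturation.

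A promoter region here is a listed region whose summit, or midpoint where the list gives no summit, lay within 1 kb of an NM transcription start. Regions were ranked within their own list by the authors' score (BCL11A) or signal (195C>G and WT), and by list order in K562, where no value is given. Rank 1 is the strongest in the lists with values. Nothing in the K562 list states that its order is by strength, so its ranks are places in that order and are read as strength only on that assumption. Rank percent is the rank divided by the length of the list. The lists held 12911 regions for BCL11A, 17331 for K562, 18784 for 195C>G and 36435 for WT, so the WT list gives any gene more chances of a region than the 195C>G list. The BCL11A and K562 lists are pooled over replicates and the other lists come from 1 library each. No spread between samples could be had, and every difference given here is a description without a test.

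Promoters of the members on which the values turn are shown first, each as the 250 bases before the RefSeq start in GRCh38.p14, on the strand of the gene. MRPL39 (chr21:25607482-25607731, minus strand) and MRPS33 (chr7:141014953-141015202, minus strand) had the best-ranked member regions in the ZBTB7A lists. MRPL40 (chr22:19432295-19432544, plus strand) had the strongest member region of the BCL11A list and the lowest summed rank of the genes found in all 4 lists. Capitals mark CCGGAAG, the core letters bound by ETS factors such as GABPA, sought on both strands. Within the printed bases they occur in MRPL40 alone. MRPS33 has them on the other strand from its RefSeq start on, just after the printed bases. That site lies in its K562, 195C>G and WT regions. The summits of its best 195C>G and WT regions also lie after the printed bases.
MRPL39: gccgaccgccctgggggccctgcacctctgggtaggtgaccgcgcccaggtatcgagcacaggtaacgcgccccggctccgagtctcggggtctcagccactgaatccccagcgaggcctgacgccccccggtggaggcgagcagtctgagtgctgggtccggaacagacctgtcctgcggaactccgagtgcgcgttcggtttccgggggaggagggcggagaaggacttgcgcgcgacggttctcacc
MRPS33: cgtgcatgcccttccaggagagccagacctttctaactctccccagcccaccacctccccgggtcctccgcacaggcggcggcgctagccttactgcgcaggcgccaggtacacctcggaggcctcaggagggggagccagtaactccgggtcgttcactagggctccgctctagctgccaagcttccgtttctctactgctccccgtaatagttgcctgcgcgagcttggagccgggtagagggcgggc
MRPL40: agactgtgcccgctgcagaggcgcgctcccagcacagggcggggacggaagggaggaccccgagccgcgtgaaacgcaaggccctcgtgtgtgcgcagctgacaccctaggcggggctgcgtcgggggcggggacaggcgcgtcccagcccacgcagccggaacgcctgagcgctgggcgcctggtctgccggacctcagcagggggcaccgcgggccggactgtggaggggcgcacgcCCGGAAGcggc

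The next set shows promoters with the letters TGACCA, which BCL11A binds at the γ-globin promoter, together with the strongest region that only the BCL11A list held. MRPS31 (chr13:40771191-40771440, minus strand) and MRPL4 (chr19:10251701-10251950, plus strand) were in all 4 lists, MRPS18A (chr6:43687792-43688041, minus strand) was in the BCL11A list alone, and MRPL20 (chr1:1407294-1407543, minus strand) was in none. Capitals mark TGACCA, which is written TGGTCA where it lies on the other strand, and the CCGGAAG described before. They also mark the letters bound by NFY, CCAAT, which is written ATTGG where it lies on the other strand.
MRPS31: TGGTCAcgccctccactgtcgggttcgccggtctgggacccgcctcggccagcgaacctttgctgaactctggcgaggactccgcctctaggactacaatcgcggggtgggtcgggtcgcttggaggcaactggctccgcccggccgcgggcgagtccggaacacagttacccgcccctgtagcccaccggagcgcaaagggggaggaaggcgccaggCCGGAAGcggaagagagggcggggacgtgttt
MRPL4: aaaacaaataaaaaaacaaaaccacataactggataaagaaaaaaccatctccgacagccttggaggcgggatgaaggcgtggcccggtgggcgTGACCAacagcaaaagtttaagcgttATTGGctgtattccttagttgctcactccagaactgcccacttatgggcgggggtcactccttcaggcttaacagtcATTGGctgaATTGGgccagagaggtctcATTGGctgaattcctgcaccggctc
MRPS18A: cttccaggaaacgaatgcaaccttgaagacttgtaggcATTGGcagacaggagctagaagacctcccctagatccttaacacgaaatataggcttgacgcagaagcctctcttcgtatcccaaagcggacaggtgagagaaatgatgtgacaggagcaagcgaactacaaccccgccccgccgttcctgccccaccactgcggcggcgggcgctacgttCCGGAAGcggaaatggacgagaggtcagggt
MRPL20: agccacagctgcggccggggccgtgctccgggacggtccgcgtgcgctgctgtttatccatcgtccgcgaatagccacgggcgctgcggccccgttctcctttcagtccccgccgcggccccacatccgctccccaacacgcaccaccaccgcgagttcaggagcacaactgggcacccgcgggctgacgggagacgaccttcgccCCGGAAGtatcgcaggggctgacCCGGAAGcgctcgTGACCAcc

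The members had promoter regions more often than all genes in each of the lists. In the BCL11A list 30 of the 78 members (38.5%) had one, beside 24.4% of all 19343 genes. In the K562 list 40 members (51.3%) had one, beside 33.2% of all genes.

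In the 195C>G list 36 members (46.2%) had a promoter region, beside 29.1% of all genes, and in the WT list 54 members (69.2%), beside 44.9% of all genes. All genes include the members. The ranks of the regions did not follow the same pattern. The median rank percent was 29.1 for bound members and 44.0 for all bound genes in the BCL11A list, and 29.3 and 37.9 in the K562 list. In the 195C>G list it was 41.9 for members and 40.0 for all bound genes, and in the WT list 31.7 and 28.5. By the median, bound members thus sat nearer the top of the list than bound genes at large in BCL11A and K562 and slightly nearer the bottom in 195C>G and WT. In K562 the first 25% of the list nonetheless held 12 of 40 bound members (30%), beside 34.0% of all bound genes.

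**Figure D1:**
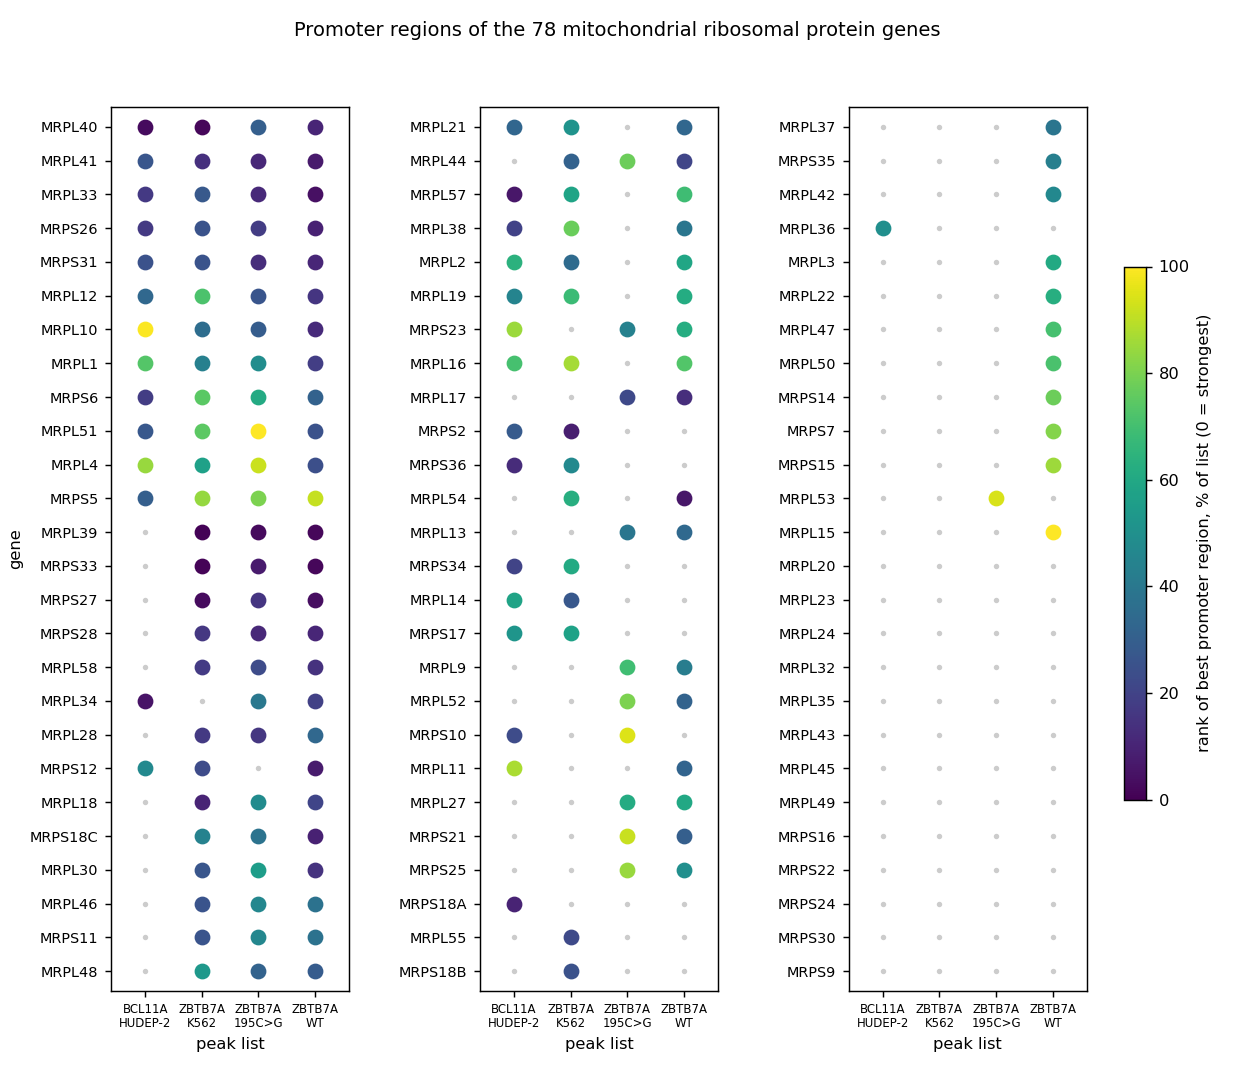
Rank of the best promoter region of each of the 78 genes (rows) in the 4 peak lists (columns). Colour gives rank as a percent of the list, with 0 the top of the list. The top is the strongest region except in K562, where the order is not stated to be by strength. A small grey dot marks a gene with no promoter region there. The 12 genes found in all lists stand at the top of the left panel and the 13 found in none at the bottom of the right panel.

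Genes named for the large (MRPL) and the small subunit (MRPS) had similar shares in 3 of the lists. BCL11A regions were found at 18 of 49 MRPL genes (36.7%) and 12 of 29 MRPS genes (41.4%), with MRPS18A counted by name among the latter. K562 regions were found at 25 (51.0%) and 15 (51.7%), and 195C>G regions at 23 (46.9%) and 13 (44.8%). In the WT list 37 MRPL genes (75.5%) and 17 MRPS genes (58.6%) had a region, and the difference was not tested.

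The leading members of each list are given with their values. MRPL40, a large subunit protein encoded beside the histone chaperone gene HIRA, had the strongest member region of the BCL11A list, at rank 357 with a score of 224, 23 bp upstream of its nearest start (chr22:19432307-19432656). Its K562 region ranked 277, its 195C>G region 5590 (signal 52.7) and its WT region 3754 (signal 62.0). Its place in the lists was therefore higher for BCL11A and for ZBTB7A in K562 than for ZBTB7A in either HUDEP-2 (ΔGγ) line.

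Among the other leading BCL11A regions were those of MRPL34 (rank 698, score 149), MRPL57 (rank 806, score 136), MRPS18A (rank 1235, score 102) and MRPS36 (rank 1607, score 86.1). MRPL34 encodes one of the smallest proteins of the large subunit, and MRPS36 is also known as a subunit of the α-ketoglutarate dehydrogenase complex. MRPL34, MRPL57 and MRPS36 were in other lists too, while MRPS18A was in none of the ZBTB7A lists. A start of SKA3 lies within 1 kb of that of MRPL57.

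MRPL39 and MRPS33 led the members in all 3 ZBTB7A lists and had no BCL11A promoter region. MRPL39 is a mitochondria-specific protein of the large subunit that resembles threonyl-tRNA synthetases in fold, and MRPS33 belongs to the small subunit. The MRPL39 region ranked 107 in K562 (chr21:25607408-25607817), 491 in 195C>G (signal 131) and 700 in WT (signal 115). The MRPS33 region ranked 163 in K562 (chr7:141014577-141015336), 1345 in 195C>G (signal 95.7) and 583 in WT (signal 122). Neither gene ranked lower than 7.16% of the way down any ZBTB7A list.

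MRPS27, a small subunit protein with pentatricopeptide repeats, ranked 538 in K562, 2869 in 195C>G (signal 71.4) and 1300 in WT (signal 94.7). Its summits lay upstream, 430 bp from its start in WT, in the promoter it shares with PTCD2, which also encodes a mitochondrial pentatricopeptide repeat protein. MRPS2 completed the leading K562 members at rank 1453. In 195C>G the leading members also held MRPS28 (rank 2117, signal 80.6), MRPL41 (rank 2130, signal 80.4) and MRPL33 (rank 2165, signal 79.9). In WT they held MRPL33 (rank 1562, signal 89.1) and MRPL54 (rank 2249, signal 77.1).

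No promoter region was found for 13 of the 78 members (16.7%), beside 45.1% of all genes. With all lists at the length of the shortest the count was 27 (all genes 54.6%), and with the first 50% of each list by rank 25 (58.2%). In the full lists these were MRPL20, MRPL23, MRPL24, MRPL32, MRPL35, MRPL43, MRPL45, MRPL49, MRPS9, MRPS16, MRPS22, MRPS24 and MRPS30. They include conserved core proteins of the large subunit (MRPL20, MRPL23 and MRPL24) and of the small subunit (MRPS9 and MRPS16), and MRPL45, which faces the inner membrane at the exit of the peptide tunnel. With a window of 5 kb, MRPL35 and MRPS22 each had a region in 3 lists and MRPL49 in 2.

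Promoter regions in 1, 2 and 3 lists were found for 16 members (20.5%), 15 members (19.2%) and 22 members (28.2%), beside 14.1%, 15.0% and 15.8% of all genes. All 4 lists held a promoter region for 12 members (15.4%), beside 10.0% of all genes. These were MRPL1, MRPL4, MRPL10, MRPL12, MRPL33, MRPL40, MRPL41, MRPL51, MRPS5, MRPS6, MRPS26 and MRPS31. The largest excess over all genes was thus at 3 lists.

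Of the genes in all 4 lists, MRPL40 had the lowest summed rank percent (44.4), followed by MRPL41 (59.0), MRPL33 (60), MRPS26 (69.2) and MRPS31 (74.4). MRPL41 ranked 3460 in BCL11A (score 49.6), 2390 in K562, 2130 in 195C>G (signal 80.4) and 2560 in WT (signal 73.2). MRPL33 ranked 2156 in BCL11A (score 69.9), 4758 in K562, 2165 in 195C>G (signal 79.9) and 1562 in WT (signal 89.1). Neither gene ranked lower than 27.5% of the way down any list.

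MRPS26 ranked 2214 in BCL11A (score 68.5), 4396 in K562, 3306 in 195C>G (signal 67.2) and 3311 in WT (signal 65.6). MRPS31 ranked 3251 in BCL11A (score 52.2), 4416 in K562, 2400 in 195C>G (signal 76.7) and 3988 in WT (signal 60.4). Both are small subunit genes with a single start and no divergent partner.

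In the other genes found in all 4 lists the best region stood low in at least 1 list. For MRPL12 that list was K562, whose order is not stated to be by strength. MRPL12, whose protein is also known to bind the mitochondrial RNA polymerase, had a rank percent of 33.5 in BCL11A, 71.6 in K562, 26.5 in 195C>G and 15.4 in WT. MRPL10 had 99.5 in BCL11A, 35.3 in K562, 29.1 in 195C>G and 12 in WT. MRPL1 had 73.1 in BCL11A, 43.2 in K562, 48.7 in 195C>G and 18.1 in WT. MRPL10, a protein of the stalk base of the large subunit, was thus near the end of the BCL11A list.

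MRPS6 had a rank percent of 17.7 in BCL11A, 74.6 in K562, 60.8 in 195C>G and 31.0 in WT, in a promoter close to a start of SLC5A3. MRPL51 had 27.2 in BCL11A, 74.8 in K562, 99.7 in 195C>G and 25 in WT, in a promoter shared with the condensin gene NCAPD2. Their BCL11A regions thus stood higher in that list than their K562 regions in theirs. MRPL4 (summed rank percent 258) and MRPS5 (285) closed the set, with MRPS5 at 91.2 in WT.

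The most frequent combination of lists among members was K562, 195C>G and WT without BCL11A, at 13 members (16.7%), beside 9.95% of all genes. It held MRPL18, MRPL28, MRPL30, MRPL39, MRPL44, MRPL46, MRPL48, MRPL58, MRPS11, MRPS18C, MRPS27, MRPS28 and MRPS33. MRPL58 is a peptidyl-tRNA hydrolase built into the large subunit, and MRPL44 carries an RNase III-like fold. A region in WT alone was found for 11 members (14.1%, beside 7.02% of all genes), namely MRPL3, MRPL15, MRPL22, MRPL37, MRPL42, MRPL47, MRPL50, MRPS7, MRPS14, MRPS15 and MRPS35. The WT list is the longest. Cut to the length of the 195C>G list, an alternative chosen after seeing the data, it left 8 of these 11 members in no list. With all lists at the length of the shortest all 11 were in none. Under these cuts the share of all genes in no list was 49.6% and 54.6%, beside 45.1% in the full lists.

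BCL11A, K562 and WT without 195C>G were combined at 7 members (8.97%, beside 2.2% of all genes), which were MRPL2, MRPL16, MRPL19, MRPL21, MRPL38, MRPL57 and MRPS12. Both HUDEP-2 ZBTB7A lists without the others were combined at 7 members (8.97%, beside 4.80%), which were MRPL9, MRPL13, MRPL17, MRPL27, MRPL52, MRPS21 and MRPS25. BCL11A and K562 alone shared 5 members (6.41%, beside 2.58%), which were MRPL14, MRPS2, MRPS17, MRPS34 and MRPS36. BCL11A with both HUDEP-2 lists held MRPL34 and MRPS23 (2.56%, beside 3.59%). BCL11A with WT held MRPL11 (1.28%, beside 2.96%), and K562 with WT held MRPL54 (1.28%, beside 4.36%). K562 alone held MRPL55 and MRPS18B (2.56%, beside 3.81%). In these last combinations the share of members was below that of all genes.

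Nearly every member with a BCL11A region also had a ZBTB7A region. This was so for 28 of 30 members with a BCL11A region (93.3%), beside 88.3% of all genes with one. The exceptions were MRPS18A (rank 1235) and MRPL36 (rank 6359, score 29.8), a small zinc-binding protein of the large subunit whose region lay at -637 bp from its start and was lost with a window of 500 bp. Of the 48 members without a BCL11A region, 35 (72.9%) had a ZBTB7A region, beside 40.4% of all genes without one. The difference between members and all genes was thus wider where BCL11A was not found. Where it was found, the 88.3% of all genes left little room for a higher share, so the widths cannot be compared.

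All 3 ZBTB7A lists held a promoter region for 25 members (32.1%), beside 20.0% of all genes. The best regions of a member usually covered the same place in each pair of lists. The best BCL11A and K562 regions overlapped by at least 1 bp at 23 of the 24 members that had both (95.8%), beside 76.0% of all such genes, with MRPS6 the exception. The best BCL11A and WT regions overlapped at 19 of 19 members, beside 88.5% of such genes. Members on chromosome 11 were left out of overlaps between the builds.

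For 195C>G and WT the best regions overlapped at 34 of 34 members with both, beside 98.5% of such genes. For K562 and WT the number was 28 of 30 (93.3%, beside 95.8%), with MRPL51 and MRPS5 the exceptions. For 195C>G and K562 it was 23 of 24 (95.8%, beside 93.6%) and for 195C>G and BCL11A 13 of 15 (86.7%, beside 79.7%). The median distance between the summits or midpoints of members was 88.0 bp for BCL11A and K562, beside 231.5 bp for all such genes, and 69.0 bp for BCL11A and WT, beside 225 bp. A region in the same place is not evidence that both proteins were on the same DNA molecule.

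The distance of the best region from the start was compared with that of all bound genes. The summit or midpoint of the best region lay within 250 bp of the nearest start at 21 of 30 members in BCL11A (70.0%, beside 57.7% of all bound genes), 23 of 40 in K562 (57.5%, beside 58.3%), 22 of 36 in 195C>G (61.1%, beside 48.8%) and 34 of 54 in WT (63.0%, beside 52.5%). The median position of members was -31 bp in BCL11A, -66 bp in K562, 17 bp in 195C>G and -28 bp in WT, negative being upstream. For all bound genes it was 41, -15, 14 and 22 bp in the same order. The best region lay more than 500 bp away at 2 members in BCL11A (MRPL12 and MRPL36), 5 in K562, 1 in 195C>G (MRPS25) and 3 in WT. Over all bound genes the numbers were 862 of 4723, 1210 of 6424, 1345 of 5638 and 1812 of 8684.

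Many members share a divergent promoter, that is, an NM start of another gene on the opposite strand within 1 kb, both genes being read away from it. This was so for 25 of 78 members (32.1%), beside 10.1% of all genes. They form 24 pairs, since MRPL46 and MRPS11 are partners of each other. The starts lay 7 to 992 bp apart, with a median of 87.5 bp, and 19 of the 24 pairs were within 250 bp. Members and partners come from many pathways. MRPS12 pairs with SARS2, the mitochondrial seryl-tRNA synthetase, MRPL47 with NDUFB5 of respiratory complex I, and MRPL43 with TWNK, the mitochondrial DNA helicase.

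Other partners have roles outside mitochondria. MRPL18 pairs with TCP1 of the cytosolic chaperonin, MRPL32 with PSMA2 of the proteasome, MRPL40 with HIRA, MRPL51 with NCAPD2 of condensin, MRPL49 with FAU, MRPL27 with EME1 and MRPS34 with EME2. The rest are MRPL2 with KLC4, MRPL10 with LRRC46, MRPL14 with TMEM63B, MRPL21 with IGHMBP2, MRPL30 with MITD1, MRPL37 with CYB5RL, MRPL50 with ZNF189, MRPL54 with APBA3, MRPS2 with C9orf116, MRPS7 with GGA3, MRPS18B with PPP1R10, MRPS18C with HELQ and MRPS27 with PTCD2.

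A region in such a promoter cannot be assigned to either gene. With starts this close, 1 region usually lies within 1 kb of both and counts for both genes. Among paired members with a region, the best region was nearer the start of the partner at 3 of 9 in BCL11A, 8 of 17 in K562, 3 of 10 in 195C>G and 10 of 18 in WT. The same was not counted over all paired genes, so these numbers are no result about the members. MRPL46 and MRPS11 share their regions in all 3 ZBTB7A lists and so count as 2 members for 1 place. The WT region of MRPL54 lay 808 bp from its own start and 184 bp from that of APBA3.

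Members with a divergent partner had shares near or below those of all paired genes, except in K562. With a partner, 9 of 25 members (36.0%) had a BCL11A region, beside 38.7% of all paired genes, and 17 (68.0%) a K562 region, beside 50.9%. In 195C>G the number was 10 (40.0%, beside 46.2%) and in WT 18 (72.0%, beside 70.9%). Without a partner, 21 of 53 members (39.6%) had a BCL11A region, beside 22.8% of all unpaired genes, and 23 (43.4%) a K562 region, beside 31.2%. In 195C>G the number was 26 (49.1%, beside 27.2%) and in WT 36 (67.9%, beside 42.0%). Members without a partner were thus above the unpaired genes in every list, and members with a partner were above the paired genes in K562 and, by little, in WT. Over all genes the paired shares were above the unpaired ones in every list. Among members this was so in K562 and WT but not in BCL11A and 195C>G. Members without a partner can still have another start nearby that the divergent rule does not count. Within 1 kb this was OAZ3 for MRPL9, MTBP for MRPL13, SKA3 for MRPL57 and SLC5A3 for MRPS6. The part of divergent promoters in the members' shares was not tested.

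The base content of the promoters was set beside these shares. A RefSeq promoter of 300 bases starting within 250 bp of a deposited start was matched for 65 members (83.3%) and for 13283 of all genes. Median GC content was 60% in members and 63.0% in all genes, and the median number of CpG was 24 and 23. Of the 35 members with at least 23 CpG, 16 (45.7%) had a BCL11A region, 21 (60%) a K562 region, 17 (48.6%) a 195C>G region and 22 (62.9%) a WT region, beside 37.4%, 49.2%, 42.1% and 64.0% of all genes with as many.

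Of the 30 members with fewer CpG, 9 (30%) had a BCL11A region, 12 (40.0%) a K562 region, 12 (40.0%) a 195C>G region and 21 (70.0%) a WT region, beside 15.4%, 22.6%, 20.5% and 32.8% of all genes. All genes thus had fewer regions at promoters poor in CpG in every list, and the members did so in BCL11A, K562 and 195C>G but not in WT. The part of base content in the members' shares was not tested further.

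Among the 6 motifs sought, those of ETS factors and YY1 differed most in share between members and all promoters. CCGGAAG, sought on both strands, was present in 29 of 65 member promoters (44.6%), beside 15.2% of all promoters. Of its 39 sites in members, 33 began no more than 100 bp upstream of the RefSeq start or after it, and the median position was -22. AAGATGG, the letters of YY1, was present in 23 member promoters (35.4%), beside 6.53% of all promoters, with a median position of 9 bp after the start. These letters contain ATG, and how many of the sites are start codons was not tested.

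AAGATGG was present in 14 of 52 members with a ZBTB7A region (26.9%) and in 7 of 11 in no list (63.6%). Over all genes it was present in 7.80% of promoters with a ZBTB7A region and in 4.88% of those in no list. CCGGAAG was present in 24 of 52 members with a ZBTB7A region (46.2%) and in 4 of 11 in no list (36.4%), beside 20.7% and 7.30% of all genes. The order of the shares was thus opposite in members and all genes for AAGATGG, on 11 members in no list, and was not tested.

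The letters tied to BCL11A at γ-globin were about as frequent in members as in all promoters. TGACCA was present in 6 of 65 member promoters (9.23%), beside 9.24% of all promoters, and in 2 of 25 with a BCL11A region (8%) against 4 of 40 without one (10.0%). The genes were MRPL4, MRPL20, MRPL22, MRPL30, MRPL48 and MRPS31. In MRPS31 the site began at -250 bp from the RefSeq start, within the BCL11A, 195C>G and WT regions. In MRPL4 it began at -156 bp and lay in none of the regions of that gene. In MRPL20 it began at -8 bp, with no region in any list.

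CCTTCCCC, the letters that ZBTB7A binds in the distal γ-globin promoter, was present in 3 member promoters (4.62%), beside 6.25% of all promoters. The direction rests on the start tolerance, since at 1000 bp the shares were 7.25% and 6.38%. At 250 bp the genes were MRPL49, MRPS24 and MRPS25, and none of these sites lay in a region of the lists. GCGCATG, the letters of NRF1, was present in 7 members (10.8%, beside 6.14%), and CCAAT in 19 (29.2%, beside 37.5%). A TGACCA followed by AT would also hold CCAAT and would count for both. MRPL4 carried 4 CCAAT sites, all shown as ATTGG above.

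The 195C>G list held fewer members than the WT list. Of the 54 members with a WT promoter region, 34 (63.0%) had their best WT region overlapped by a 195C>G region, beside 60.9% of all genes with a WT region. A share so near the background is no result about the members. With the WT list cut to the length of the 195C>G list, an alternative chosen after seeing the data, the shares were 79.5% for members and 74.9% for all genes.

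The overlap depended on how strong the WT region was. The WT list was divided by rank into 4 equal classes. In the strongest class 20 of 22 members were overlapped in 195C>G (90.9%, beside 88.2% of all genes in that class). In the next class it was 11 of 17 (64.7%, beside 54.8%). In the weaker classes it was 2 of 10 (20.0%, beside 25.2%) and 1 of 5 (20.0%, beside 15.1%). The strongest WT regions without overlap were those of MRPL54 (rank 2249) and MRPS12 (rank 2575, signal 72.9), a protein of the decoding centre, followed by MRPL11 (rank 11602), MRPL21 (rank 12093) and MRPL37 (rank 14199).

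MRPL54 and MRPS12 were the members in the strongest class without overlap, and both lie on chromosome 19. Of the 4 members on that chromosome MRPL4 and MRPL34 were overlapped, so 2 of 4 were, beside 45.4% of all chromosome 19 genes with a WT region. Both MRPL54 and MRPS12 had K562 regions, at ranks 10846 and 3964, and MRPS12 also a BCL11A region at rank 6076. The reverse case, a 195C>G region without any WT region, was found for MRPL53 (rank 17617, signal 26.9) and MRPS10 (rank 17766, signal 26.8), both among the weakest regions of the 195C>G list. These were 2 of the 36 members with a 195C>G region (5.56%), beside 2.7% of all genes with one. With 1 library in each group, a difference between 195C>G and WT cannot be told apart from a difference between libraries.

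**Figure D2:**
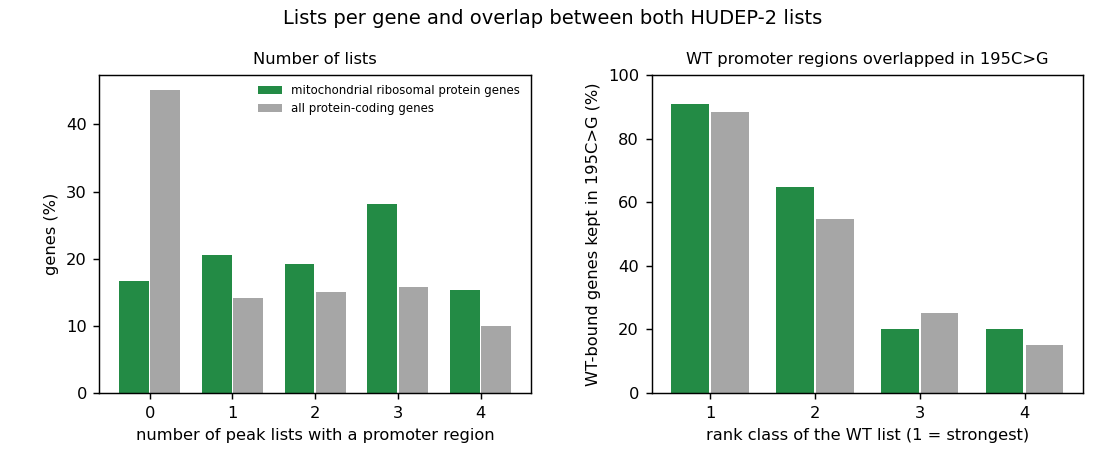
Left, percent of genes (y axis) by the number of peak lists with a promoter region (x axis); right, percent of genes with a WT promoter region whose best region is overlapped by a 195C>G region (y axis), by rank class of the WT list (x axis, 1 strongest, 4 equal classes); green, genes of the mitochondrial ribosome; grey, all protein-coding genes. Members are in no list less often than all genes (16.7% and 45.1%), and overlap is more frequent in classes 1 and 2 than in classes 3 and 4 in both sets, with 90.9% and 88.2% in the strongest class.

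Other gene groups are given for scale. Of 87 genes for cytosolic ribosomal proteins, 32.2% had a BCL11A region, 35.6% a K562 region, 32.2% a 195C>G region and 60.9% a WT region, each a lower share than in the members. Of 48 SLC25 genes, which encode carriers of the inner mitochondrial membrane, 45.8% had a BCL11A region, 41.7% a K562 region, 35.4% a 195C>G region and 58.3% a WT region. The members' share was thus lower than that of the carriers in BCL11A and higher in the ZBTB7A lists.

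Genes that work with the mitochondrial ribosome were counted in the same way, in small lists. The shares over all genes are those given above, 24.4% in BCL11A, 33.2% in K562, 29.1% in 195C>G and 44.9% in WT. Among 12 mitochondrial translation factors, 4 had a BCL11A region, 8 a K562 region, 9 a 195C>G region and 10 a WT region (33.3%, 66.7%, 75% and 83.3%), led by the initiation factor MTIF2 in BCL11A (rank 167), C12orf65 in K562 (rank 857) and the initiation factor MTIF3 in 195C>G (rank 1428) and WT (rank 1472). Among 22 genes for ribosome assembly and rRNA modification the numbers were 10, 10, 11 and 16 (45.5%, 45.5%, 50.0% and 72.7%), led by MRM2, an rRNA methyltransferase, in BCL11A (rank 284) and by TFB1M in K562 (rank 2167), 195C>G (rank 1802) and WT (rank 1099).

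Among 13 regulators of mitochondrial gene expression the numbers were 7, 7, 5 and 8 (53.8%, 53.8%, 38.5% and 61.5%), led by TFB2M in BCL11A (rank 964), ESRRA in K562 (rank 798) and GABPB1 in 195C>G (rank 5683) and WT (rank 3657). Of 5 proteins of the ribosome named outside the MRPL and MRPS scheme 3 had a BCL11A region, 3 a K562 region, 1 a 195C>G region and 2 a WT region, led by AURKAIP1 in BCL11A (rank 581) and K562 (rank 1986) and by GADD45GIP1 in 195C>G (rank 10711) and WT (rank 734).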

How the data were processed

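The data are 4 peak lists from 16 ChIP-seq libraries (8 ChIP and 8 controls). The submitters' processing notes name Trimmomatic 0.3.2, Bowtie2 2.2.9, Bowtie, Picard, bedtools and the build GRCh38/hg38, without their settings. Controls are called input in the sample titles and IgG in some antibody labels. Per the labels' file descriptions, the BCL11A and K562 lists are pooled over replicates through the irreproducible discovery rate. The deposited BCL11A list has a score for each region but lacks summits. The 195C>G and WT lists, as deposited, carry summits, a signal and −log10 values of a false discovery rate, with no scaling stated. The deposited K562 list has no value, so its order served as rank. Read depth is unknown.

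Both HUDEP-2 ZBTB7A lists are on a chromosome 11 modified by the authors. Starts after HBG1 were moved up by 4928 bp for the other lists. That was the commonest difference from the RefSeq gene table of GRCh38.p14 (exact for 298 of 1095 genes). Identical regions were counted once, only standard chromosomes were used, and coordinates are 1-based. A divergent partner is an opposite-strand start within 1 kb. Genes were named by rank in each list, by presence in all lists or none, and by missing overlaps. Promoter sequences are RefSeq's (GRCh38.p14), matched by symbol for 70 members. The 250 bp start tolerance was chosen after seeing the data, as the smallest of 4 tried that covered 80% of the members. Members and gene lists were chosen with earlier results of these data known. Overlap and ranking were computed in Python 3.11.15 with pandas 2.3.3 and tested on simulated data. Alternatives covered the window, the list threshold, the start, the point placing a region and the overlap required. Unplaced chromosomes were not used here.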

Additional observations from a re-analysis of the deposited data

How the results depend on the processing

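Most values changed by less than 1.5 times under the alternatives tried. With the first 50% of each list by rank, 26 members had a K562 region and 23 a 195C>G region. There, 5 were in all 4 lists and 25 in none (all genes 20.8%, 17.8%, 3.50% and 58.2%). With all lists at the length of the shortest, chosen after seeing the data, 31 members had a WT region and 27 were in no list (all genes 25.9% and 54.6%). With the WT list at the length of the 195C>G list, 21 members were in no list (all genes 49.6%). These settings use fewer regions by construction. The share of WT-bound members overlapped in 195C>G ranged from 55.6% to 79.5%, and that of all WT-bound genes from 51.0% to 74.9%. CCTTCCCC was in 7.25% of member promoters (6.38% of all) at a start tolerance of 1000 bp, against 4.62% (6.25%) at 250 bp. Placing regions by midpoint, RefSeq starts on chromosome 11 and the most upstream start alone changed the number of lists of no member. Counting any overlap with 1 kb around a start changed it for 1 member, MRPL54, which was then in 3 lists. A window of 500 bp changed it for 7 members and one of 5 kb for 6. The first 50% by rank changed it for 37 members, equal list lengths for 31 and the shortened WT list for 15. No library could be left out, since the lists are pooled or come from 1 library. No paired analysis was possible because no result comes from a test across samples. Depth is unknown, so a missing region is not evidence of no binding.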
